A study of Mus musculus with 6 samples.

Results

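Effector cytokines and chemokines are the secreted proteins through which an activated CD8 T cell acts on other cells. The set described here holds 9 genes, Ifng, Il2, Il3, Csf2, Il10, Ccl3, Ccl4, Ccl5 and Xcl1, taken by symbol from the 54532 gene rows of the deposited expression table. RNA was sequenced from mouse CD8 T cells, which become killers of infected and tumour cells, purified from spleen and lymph nodes. The KO group (n = 3) carried a knockout of Ptpmt1, which encodes a mitochondrial phosphatase needed to make the membrane lipid cardiolipin, and the WT group (n = 3) was wild type. Both groups were stimulated in culture for 3 days with Dynabeads bearing antibodies to CD3 and CD28, which replace the antigen receptor and costimulatory signals. The labels give neither the deleted exons nor any driver of the deletion, nor the age of the mice, and do not say that replicates came from separate animals or cultures. The p-values therefore measure the spread between these libraries, which may be partly technical.

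Ifng encodes interferon gamma, which activates macrophages and raises antigen presentation. Il2 is the autocrine growth factor of activated T cells, Il3 and Csf2 (GM-CSF) act on myeloid cells, and Il10 restrains inflammation. Ccl3, Ccl4 and Ccl5 are CC chemokines that attract T cells and monocytes, while Xcl1 (lymphotactin) attracts dendritic cells that carry Xcr1. In T cells such genes are switched on by factors including NFAT and AP-1. Many of their mRNAs are short-lived because their 3′ untranslated regions hold AU-rich elements, which proteins of the Zfp36 family bind to promote decay.

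The letters of those elements are shown because the members differ widely in them and because levels of the Zfp36 family are given further on. The motif ATTTA was searched on the coding strand of the annotated 3′ untranslated regions, counting overlapping matches, and so was the longer motif TTATTTATT, which holds ATTTA. Csf2 had 9 matches to ATTTA, Il2 had 7, Ifng and Il10 had 6 each, Ccl3 had 5, Ccl4 had 2, Il3 and Xcl1 had 1 each, and Ccl5 had 0. The longer motif was present in Csf2, with 4 overlapping matches, and in Il2, with 1. Among 10033 tested genes with a 3′ untranslated region of at least 30 bases, 65.5% held ATTTA and 6.98% held TTATTTATT. Against regions 0.8 to 1.25 times as long, 0.106% had as many ATTTA matches as Csf2 and 0.707% as many as Ifng. For Ccl3 that share was 0.893%, and for Xcl1 it was 22.8%. Each share counts the member itself, and for Csf2 no other region among the 940 had as many. The stretches of 30 bases below are from the mm10 build, 5′ to 3′ on the coding strand, with the motif in capitals. Csf2 lies at chr11:54247322-54247351 on the minus strand, Il2 at chr3:37120897-37120926 on the minus strand and Ifng at chr10:118445333-118445362 on the plus strand. Ccl3 lies at chr11:83648075-83648104 on the minus strand and Xcl1 at chr1:164931649-164931678 on the minus strand. A match describes the letters only.
Csf2: atatTTATTTATTTATTTATTTATTtttgc
Il2: ttatctgaaaTTATTTATTatattgaattg
Ifng: ctATTTAttaatATTTAaaactATTTAtat
Ccl3: ttgaaattttATTTAATTTAatcctattgg
Xcl1: aaatgttataagtaataaatATTTAttatt

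RefSeq promoter windows (GRCm38.p6, the same build as mm10) were matched by symbol for 6 of the 9 members. The 250 bases before the annotated start are shown for Ifng, Ccl3 and Xcl1, which had the smallest unadjusted p-values of the set. In these windows GGAAA, the core letters of an NFAT site, and the TATA box TATAAA were searched on both strands and are in capitals, with TTTCC being GGAAA read on the other strand. GGAAA was found in 55.6% and TATAAA in 12.4% of 32851 promoter windows of this length. Ifng had 1 match to each, Xcl1 had 1 GGAAA match, and Ccl3 had 2 GGAAA matches. The AP-1 letters TGANTCA, found in 6.75% of the windows, matched in none of the 6 member windows. The Ifng window is chr10:118440796-118441045 on the plus strand, that of Ccl3 is chr11:83649379-83649628 on the minus strand, and that of Xcl1 is chr1:164935523-164935772 on the minus strand.
Ifng: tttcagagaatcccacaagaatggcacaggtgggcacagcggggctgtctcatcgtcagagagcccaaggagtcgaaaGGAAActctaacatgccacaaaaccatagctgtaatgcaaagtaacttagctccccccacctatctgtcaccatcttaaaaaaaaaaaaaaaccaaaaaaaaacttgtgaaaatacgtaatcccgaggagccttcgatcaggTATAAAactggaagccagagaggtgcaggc
Ccl3: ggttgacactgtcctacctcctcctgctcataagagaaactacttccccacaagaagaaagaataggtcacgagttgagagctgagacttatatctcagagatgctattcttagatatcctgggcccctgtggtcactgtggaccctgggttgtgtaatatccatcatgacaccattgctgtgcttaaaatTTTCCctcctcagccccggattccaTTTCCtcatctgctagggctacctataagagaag
Xcl1: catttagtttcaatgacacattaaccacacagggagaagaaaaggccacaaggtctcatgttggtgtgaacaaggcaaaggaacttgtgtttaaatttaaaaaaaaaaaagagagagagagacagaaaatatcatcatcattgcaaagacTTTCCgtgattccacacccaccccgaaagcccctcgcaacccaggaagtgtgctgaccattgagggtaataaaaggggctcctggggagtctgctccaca

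Values are FPKM, fragments scaled to gene length and library size, a scale on which levels can be compared between genes. Whole reads rebuilt from these values totalled 16462539 to 16819913 in KO libraries and 14932604 to 16453314 in WT libraries. Ptpmt1 was at 1.0004, 1.58 and 1.504 FPKM in KO against 3.75, 3.84 and 4.13 FPKM in WT. It was lower in every KO library, with a log2 fold change of -1.26 (SE 0.198, limma adjusted p = 0.0884, or 0.0344 without KO replicate 3). The 7 markers of CD8 T cells summed to between 863.9 and 1605 FPKM in KO libraries and between 1380 and 1797 FPKM in WT libraries. All 7 averaged lower in KO and limma called 0. Log2 fold changes were -0.62 for Cd8a, -0.60 for Cd3e, -0.66 for Trac, -0.47 for Cd8b1, -0.27 for Cd247, -0.15 for Cd3d and -0.13 for Cd3g. The groups did not overlap for 3 of the 7, Cd8a, Cd3e and Trac, where 27.8% of all tested genes showed no overlap. Without KO replicate 3, 4 of the 7 were lower, and Cd3e and Cd8a were called (limma adjusted p = 0.0431 and 0.0491). In that subset 5.58% of all tested genes were called lower. The part of the CD8 markers in the members' values was not tested. Cd4 did not exceed 0.137 FPKM in KO or 1.86 FPKM in WT. KO replicate 3 stood apart: it had 0 reads of Xist, the RNA of the inactive X chromosome, and 1837 reads of the Y-linked gene Ddx3y. The other 5 libraries had at least 3513 Xist reads and 0 Ddx3y reads. Fold changes of the tested members, the ratios and the list counts are therefore also given without KO replicate 3.

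The members with the most abundant transcripts were chemokines, and 5 of the 6 tested members averaged higher in KO than in WT, although no difference passed the test over all genes. Xcl1, Ccl3, Ccl4, Csf2 and Ifng had a mean FPKM 1.79 to 2.93 times that of WT, and that of Ccl5 was 0.677 times WT. In FPKM, KO and WT libraries overlapped for 9 of 9 members. Testing was limited to the 12654 genes whose FPKM averaged 0.5 or more over the 6 libraries, and Il2, Il3 and Il10 fell below this threshold. Limma on log2(FPKM + 0.5) called 0 of the 6 at an adjusted p under 0.05, where 0.0395% of all tested genes were called in either direction and 0.0237% higher in KO. Limma-voom on the rebuilt reads also called 0 of them. At an unadjusted p under 0.05 there were 3 members, Ifng, Ccl3 and Xcl1, all higher in KO, where 21.8% of all tested genes reached that level and 11.5% did so as higher in KO. With every library scaled to the same FPKM total, those 3 members had an unadjusted p between 0.0786 (Xcl1) and 0.189 (Ifng). Ccl5, the lower member, was then at a log2 fold change of -0.87 (limma unadjusted p = 0.0242, adjusted p = 0.240). KO and WT libraries were without overlap for 27.8% of the tested genes. The median log2 fold change was 0.85 over the 6 members and 0.03 over all tested genes, of which 52.4% were higher in KO. Without KO replicate 3 the members' median was 0.56 and 0 were called, where 13.7% of all tested genes were called. In that subset 0 members had an unadjusted p under 0.05, where 35% of genes did, and the groups overlapped for all 6, where 53.3% of genes showed no overlap. Without WT replicate 3 the median was 1.18, 0 members were called where 0.0158% of genes were, and 3 had an unadjusted p under 0.05 where 22.2% of genes did. The groups then no longer overlapped for 4 members, against 43.7% of genes. In bulk RNA, fewer cells of a type and less RNA per cell cannot be told apart.

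**Figure D1:**
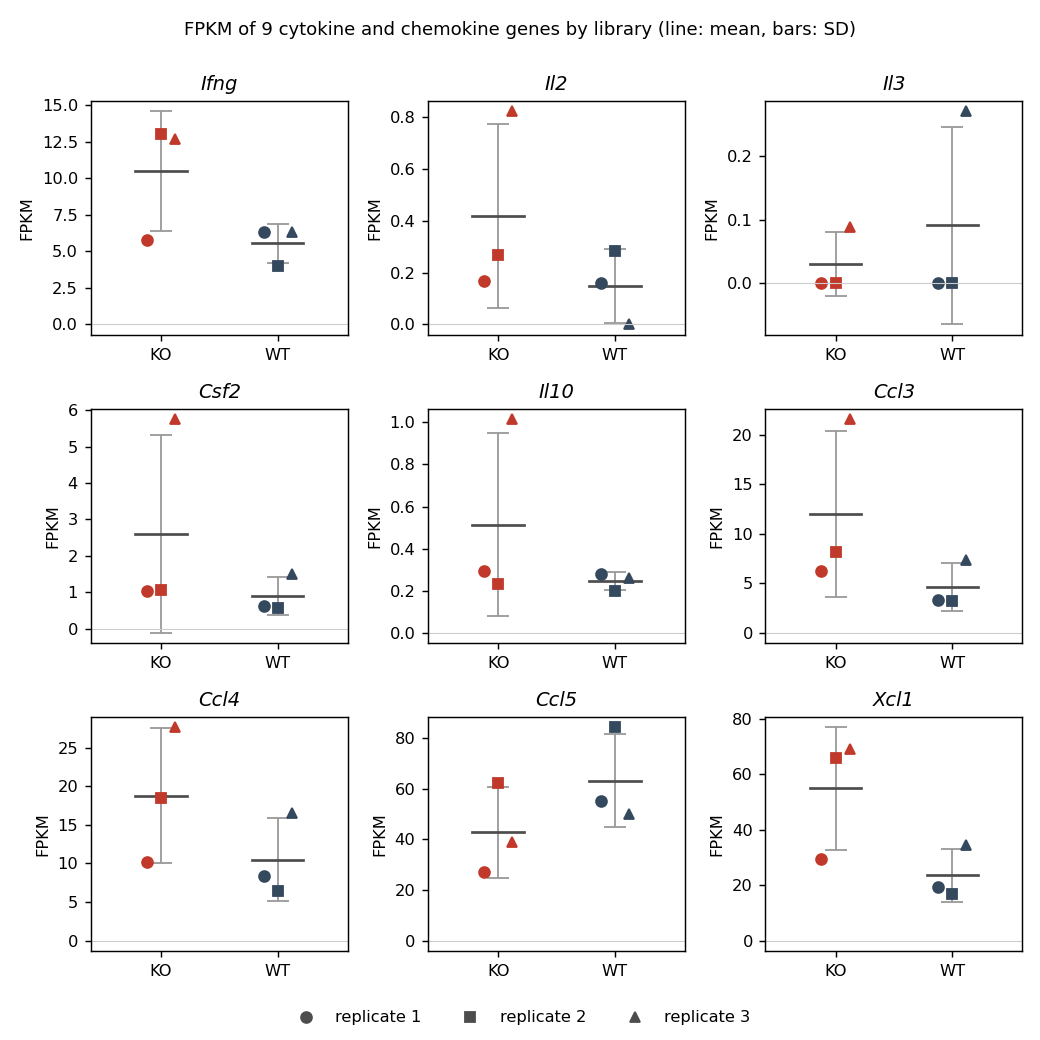
FPKM (vertical axis, 1 panel per gene with its own scale from 0) of the 9 members in the 3 KO libraries (left) and the 3 WT libraries (right), with the mean as a line and the SD as bars. KO and WT points overlap in every panel, and KO replicate 3 is the highest of the 6 libraries for Il2, Csf2, Il10, Ccl3, Ccl4 and Xcl1.

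Among the 5 cytokine members, interferon gamma had the highest level. Ifng (ENSMUSG00000055170, mm10 chr10:118441046-118445892, plus strand) was at 5.79, 13.1 and 12.7 FPKM in KO libraries, against 6.32, 3.97 and 6.33 FPKM in WT libraries. KO replicates 2 and 3 lay above every WT library, whereas KO replicate 1 lay inside the WT range. Ifng averaged 10.5 ± 4.09 FPKM in KO and 5.54 ± 1.36 FPKM in WT (SD, n = 3 each), from 118 to 296 reads per KO library and 79 to 144 reads per WT library. By limma the KO over WT log2 fold change was 0.81 (SE 0.342, 95% interval 0.00116 to 1.62, unadjusted p = 0.0498, limma adjusted p = 0.229). An exact 2-sided permutation test gave p = 0.3, where the smallest p that 3 against 3 libraries allow is 0.1. Leaving out KO replicate 3 gave 0.64 (limma adjusted p = 0.265).

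Csf2, the GM-CSF gene (ENSMUSG00000018916, mm10 chr11:54247271-54249667, minus strand), was low outside 1 library. It was at 1.03, 1.05 and 5.75 FPKM in KO libraries, against 0.611, 0.570 and 1.49 FPKM in WT libraries. KO replicate 3 held 83 Csf2 reads, the other KO libraries 13 and 11, and the WT libraries 8, 7 and 21. KO replicates 1 and 2 lay between the WT libraries, above replicates 1 and 2 and below replicate 3. Csf2 averaged 2.61 ± 2.72 FPKM in KO and 0.892 ± 0.523 FPKM in WT (SD, n = 3 each), and its log2 fold change was 0.88 by limma (SE 0.588, 95% interval -0.51 to 2.27, adjusted p = 0.416). With KO replicate 3 left out it was 0.21 (limma adjusted p = 0.699), so most of the fitted difference came with that library.

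Il3, which lies 15.6 kb from Csf2 (ENSMUSG00000018914, mm10 chr11:54265303-54267277, minus strand), was barely detected. Its reads numbered 0, 0 and 1 in KO libraries and 0, 0 and 3 in WT libraries, at or under the floor of 3 reads per library that a count of 0 allows. That floor corresponds to 0.264 to 0.363 FPKM and covers counting error only, so a difference was not detectable at this depth.

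Il2 (ENSMUSG00000027720, mm10 chr3:37120523-37125959, minus strand) was at 0.167, 0.266 and 0.823 FPKM in KO libraries, against 0.160, 0.285 and 0 FPKM in WT libraries. These values rest on 24 reads over the KO group and 8 reads over the WT group, and 17 of the 24 were in KO replicate 3. Il10 (ENSMUSG00000016529, mm10 chr1:131019845-131024974, plus strand) was at 0.291, 0.233 and 1.015 FPKM in KO, against 0.280, 0.199 and 0.261 FPKM in WT. Its reads numbered 6, 4 and 24 in KO and 6, 4 and 6 in WT, so KO replicate 3 alone lay away from the rest. Exact 2-sided permutation tests on log2(FPKM + 0.5) gave p = 0.4 for Il2 and p = 0.4 for Il10. The difference in mean log2 was 0.46 for Il2 and 0.36 for Il10, and 0.17 and 0.03 without KO replicate 3.

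Xcl1, the XC chemokine (ENSMUSG00000026573, mm10 chr1:164931644-164935527, minus strand), had the smallest p of the set. It was at 29.5, 65.9 and 69.2 FPKM in KO libraries, against 19.5, 16.7 and 34.4 FPKM in WT libraries. KO replicates 2 and 3 lay above every WT library, and KO replicate 1 lay below WT replicate 3. Xcl1 averaged 54.9 ± 22.004 FPKM in KO and 23.5 ± 9.52 FPKM in WT (SD, n = 3 each). By limma its log2 fold change was 1.18 (SE 0.403, 95% interval 0.22 to 2.13, limma p = 0.0224, adjusted p = 0.167; exact permutation p = 0.2). It was 0.96 without KO replicate 3 (limma adjusted p = 0.171) and 1.48 without WT replicate 3 (limma adjusted p = 0.125).

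Ccl3 (MIP-1 alpha, ENSMUSG00000000982, mm10 chr11:83647844-83649355, minus strand) and Ccl4 (MIP-1 beta, ENSMUSG00000018930, mm10 chr11:83662584-83664683, plus strand) are neighbours 13.2 kb apart. Ccl3 was at 6.22, 8.16 and 21.6 FPKM in KO libraries, against 3.27, 3.15 and 7.36 FPKM in WT libraries. All KO libraries lay above WT replicates 1 and 2, and KO replicate 1 lay below WT replicate 3. The means were 11.98 ± 8.35 FPKM in KO and 4.59 ± 2.40 FPKM in WT (SD, n = 3 each), and the log2 fold change was 1.19 (SE 0.499, 95% interval 0.00999 to 2.37, limma p = 0.0486, adjusted p = 0.226; exact permutation p = 0.2). It was 0.68 without KO replicate 3 (limma adjusted p = 0.240).

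Ccl4 was at 10.2, 18.5 and 27.6 FPKM in KO libraries, against 8.42, 6.41 and 16.6 FPKM in WT libraries. Here too KO replicate 1 lay below WT replicate 3 and above the other WT libraries. The means were 18.8 ± 8.71 FPKM in KO and 10.5 ± 5.38 FPKM in WT (SD, n = 3 each), with a log2 fold change of 0.81 (SE 0.444, 95% interval -0.24 to 1.86, limma adjusted p = 0.328; exact permutation p = 0.2). It was 0.49 without KO replicate 3 (limma adjusted p = 0.460) and 0.53 without WT replicate 2 (limma adjusted p = 0.689).

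Ccl5 (RANTES, ENSMUSG00000035042, mm10 chr11:83525778-83530518, minus strand), a chemokine typical of effector and memory CD8 T cells, lies 132.1 kb from Ccl4 in the same cluster and was the tested member that averaged lower in KO. It was at 27.3, 62.2 and 38.8 FPKM in KO libraries, against 55.3, 84.2 and 49.9 FPKM in WT libraries. KO replicates 1 and 3 lay below every WT library, and KO replicate 2 lay inside the WT range. That overlap depends on the FPKM scale. Rebuilt Ccl5 reads, not scaled, numbered 412, 784 and 672 in KO and 870, 1242 and 842 in WT, without overlap. For KO replicate 2 the total behind the FPKM was 0.780 times the rebuilt sum, the lowest of the libraries. The means were 42.8 ± 17.8 FPKM in KO and 63.2 ± 18.4 FPKM in WT (SD, n = 3 each), and the log2 fold change was -0.60 (SE 0.340, 95% interval -1.41 to 0.20, limma adjusted p = 0.343; exact permutation p = 0.3). It was -0.57 without KO replicate 3 (limma adjusted p = 0.341). Other libraries moved it more, to -0.32 without KO replicate 1, -0.91 without KO replicate 2 and -0.38 without WT replicate 2, with limma adjusted p-values of 0.690, 0.211 and 0.711.

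**Figure D2:**
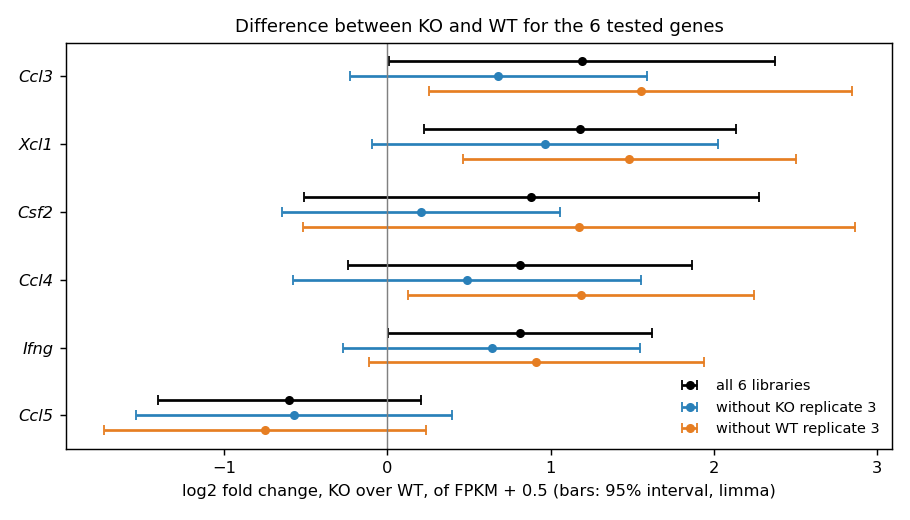
Log2 fold change of FPKM + 0.5, KO over WT (horizontal axis), for the 6 tested members, with 95% limma intervals, over all libraries, without KO replicate 3 and without WT replicate 3. With and without KO replicate 3, points for Csf2 (0.88 and 0.21) and Ccl3 (1.19 and 0.68) lie furthest apart, while those for Ccl5 (-0.60 and -0.57) nearly coincide.

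The order of levels differed between the groups at the top. In KO the mean FPKM ran Xcl1, Ccl5, Ccl4, Ccl3, Ifng, Csf2, Il10, Il2, Il3. Neighbours in that order overlapped in range from Xcl1 down to Ifng, as did Il10 and Il2. All were measured in the same libraries, so overlapping ranges do not show whether neighbours differ within libraries. In each KO library Xcl1 was above Ccl5, Ccl5 above Ccl4 and Ccl4 above Ccl3. The order of Ccl3 and Ifng, and that of Il10 and Il2, varied between KO libraries. In WT the order was Ccl5, Xcl1, Ccl4, Ifng, Ccl3, Csf2, Il10, Il2, Il3. There the range of Ccl5 lay above that of Xcl1, and that of Xcl1 above that of Ccl4, while Ifng overlapped Ccl3, Il10 overlapped Il2 and Il2 overlapped Il3.

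Within each library the balance of the chemokines was compared directly. The log2 ratio of Xcl1 to Ccl5 was 0.11, 0.08 and 0.83 in KO libraries, against -1.48, -2.30 and -0.53 in WT libraries. Xcl1 was thus above Ccl5 in 3 of 3 KO libraries and below it in 3 of 3 WT libraries. The groups did not overlap, and the ratio averaged 0.34 ± 0.42 in KO and -1.44 ± 0.89 in WT (SD, n = 3 each). The difference was 1.78, with an exact 2-sided permutation p of 0.1, the smallest possible, and 0.3 after Benjamini-Hochberg adjustment over the 6 ratios computed. The difference was 1.54 without KO replicate 3.

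The ratios of Ccl3 and Ccl4 to Ccl5 overlapped between the groups. For Ccl4 to Ccl5 the log2 ratio was -1.38, -1.73 and -0.48 in KO, against -2.65, -3.62 and -1.56 in WT, a difference of 1.41 (exact permutation p = 0.2, adjusted 0.3). For Ccl3 to Ccl5 it was -2.05, -2.86 and -0.83 in KO, against -3.89, -4.54 and -2.68 in WT, a difference of 1.79 (exact permutation p = 0.2, adjusted 0.3). Without KO replicate 3 the differences were 1.06 for Ccl4 and 1.25 for Ccl3, and without WT replicate 2 that for Ccl4 was 0.91. These ratios share Ccl5 and are not separate evidence. The ratio of the neighbours Ccl3 and Ccl4 was higher in KO by 0.38 (exact permutation p = 0.3, adjusted 0.36; 0.19 without KO replicate 3), and that of Ifng to Il2 by 0.35 (exact permutation p = 0.6, adjusted 0.6; 0.47 without KO replicate 3), each with overlapping groups. The KO minus WT difference for Il3 to Csf2 was -1.01 with no overlap (exact permutation p = 0.1, adjusted 0.3), but Il3 had at most 3 reads per library, so this value follows Csf2. It was -0.42 without KO replicate 3.

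**Figure D3:**
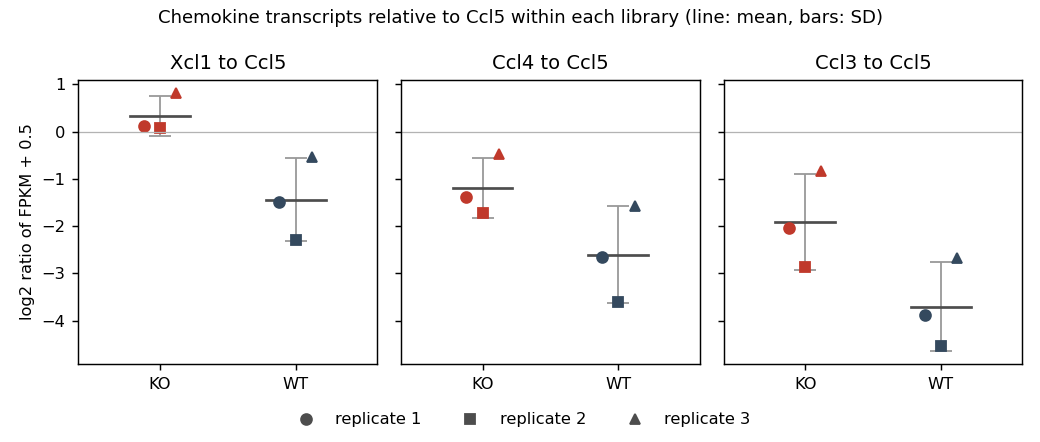
Log2 ratio of FPKM + 0.5 within each library (vertical axis) for Xcl1, Ccl4 and Ccl3 over Ccl5, in KO (left of each panel) and WT (right), with mean and SD. Xcl1 to Ccl5 is above 0 in the 3 KO libraries and below 0 in the 3 WT libraries, while the points of the other panels overlap.

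Expressed as shares of the summed FPKM of the 4 chemokines, Ccl5 made up 37.2%, 40.2% and 24.7% in KO libraries, against 64.0%, 76.2% and 46.1% in WT libraries. Xcl1 made up 40.3%, 42.6% and 44.0% in KO, against 22.5%, 15.1% and 31.8% in WT. Both shares were without overlap between the groups, each with an exact permutation p of 0.1, and they are not independent of each other or of the ratios. The sum itself overlapped, at 73.2, 154.7 and 157.1 FPKM in KO and 86.5, 110.5 and 108.3 FPKM in WT (exact permutation p = 0.4). The shares of the other two overlapped between the groups. Ccl3 made up 8.497%, 5.27% and 13.7% in KO, against 3.78%, 2.85% and 6.80% in WT (exact permutation p = 0.2). Ccl4 made up 13.9%, 11.9% and 17.6% in KO, against 9.73%, 5.804% and 15.3% in WT (exact permutation p = 0.3).

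The libraries of a group did not vary in step for all members. KO replicate 3 was the highest of the KO libraries for 7 of the 9 members, the others being Ifng and Ccl5, for which KO replicate 2 was highest. WT replicate 3 was the highest WT library for 6 members. Likeness between genes was measured as the root mean square (RMS) difference of log2(FPKM + 0.5), centred on its mean, over the 6 libraries, as a description with no test. By this measure Ccl4 and Xcl1 were 0.247 apart, Ccl3 and Csf2 0.256, Ifng and Xcl1 0.299, and Ccl3 and Ccl4 0.309. Ccl5 lay 0.850 to 1.20 from the others. All 6 points share library depth and composition.

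Among 9126 protein-coding candidates outside the set, the gene closest to Ifng was S100a1, a calcium-binding protein gene, at 0.120, followed by Fancf of the Fanconi DNA repair pathway at 0.239. S100a1 was at 7.69, 15.2 and 15.6 FPKM in KO libraries, against 7.74, 6.10 and 7.47 FPKM in WT libraries. Closest to Xcl1 was Tnfrsf9, which encodes the costimulatory receptor 4-1BB, at 0.244, followed by Serpine2 at 0.268. Tnfrsf9 was at 20.9, 31.8 and 39.1 FPKM in KO, against 11.2, 13.7 and 20.3 FPKM in WT. Closest to Ccl4 were Lmna, the lamin A gene, at 0.182 and the protease inhibitor gene Serpine2 at 0.220.

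The genes most like Csf2 and Ccl3 included Cpa3 in both cases. For Csf2 these were Serpina3f at 0.128 and Cpa3 at 0.179, and for Ccl3 they were Cpa3 at 0.184 and Serpina3g at 0.204. Cpa3, a protease gene of mast cells and basophils, was at 5.74, 7.08 and 25.9 FPKM in KO, against 4.03, 3.05 and 6.64 FPKM in WT. For Ccl5 the closest were Iqcc at 0.194 and Fcgrt, a gene of the neonatal Fc receptor, at 0.205.

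**Figure D4:**
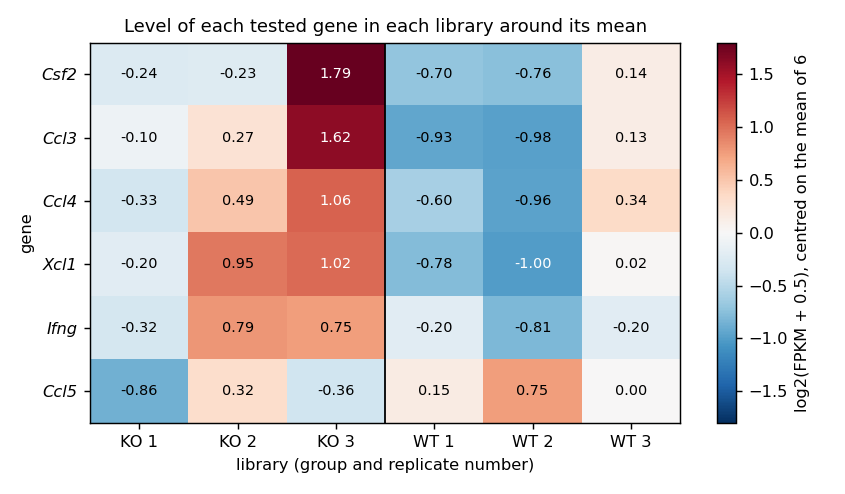
Log2(FPKM + 0.5) of the 6 tested members (rows) in each KO and WT library (columns), centred on the mean of the 6 libraries, with colour and printed value giving the same number. Csf2 (1.79) and Ccl3 (1.62) are highest in KO replicate 3, Ifng and Xcl1 are high in KO replicates 2 and 3, and Ccl5 is highest in WT replicate 2 (0.75).

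Summed markers of mast cells and basophils, gamma-delta T cells and neutrophils were highest in KO replicate 3, but those of the other lists were not. Natural killer cell markers were highest in KO replicate 2, and those of macrophages, monocytes and dendritic cells in KO replicate 1. Markers of B cells, CD4 T cells, and erythroid cells and platelets were each highest in a WT library. The 5 mast cell and basophil markers summed to 16.4, 18.2 and 84.4 FPKM in KO, against 6.64, 7.08 and 20.0 FPKM in WT, and none was at 0 in all libraries. Among them, all 5 were tested, 5 averaged higher in KO and limma called 0. The 5 gamma-delta T cell markers summed to 27.4, 64.3 and 174.1 FPKM in KO, against 29.5, 26.4 and 52.8 FPKM in WT, and of the 4 tested all 4 averaged higher in KO and 0 were called. Without KO replicate 3, 4 of 5 mast cell and basophil markers and 3 of 4 gamma-delta markers were higher, and 0 were called. In both lists, and in that of neutrophils, KO replicate 3 was the highest library and WT replicate 3 the highest of WT. That order was also seen for Csf2, Ccl3, Ccl4 and Xcl1. The part of these cell types in the levels of the members was not tested. Natural killer cell markers ranged from 19.5 to 30.6 FPKM in KO and from 19.5 to 29.5 FPKM in WT. Most of that sum was Eomes, also on the list of transcription factors of cytokine genes, at 17.9 to 21.5 FPKM in KO and 17.5 to 24.9 FPKM in WT. Klre1 was at 0.872 to 8.72 FPKM in KO and 1.45 to 2.92 FPKM in WT. In no library did Ncr1 exceed 0.296 FPKM or Klrb1c 1.38 FPKM. The B cell markers ranged from 13.4 to 15.04 FPKM in KO and from 18.6 to 25.02 FPKM in WT. Neutrophil markers ranged from 0.0668 to 8.04 FPKM in KO and from 0.686 to 5.88 FPKM in WT, with Ly6g at 0 in all 6 libraries. The macrophage, monocyte and dendritic cell markers ranged from 1.77 to 5.94 FPKM in KO and from 2.33 to 4.02 FPKM in WT, with C1qa at 0 in all 6. Those of erythroid cells and platelets ranged from 6.75 to 11.97 FPKM in KO and from 3.64 to 13.7 FPKM in WT, and those of CD4 T cells from 0.427 to 0.554 FPKM in KO and from 1.01 to 2.89 FPKM in WT.

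Other secreted factors of the same kind were counted from lists. Of 21 other cytokines, 10 were tested, 6 averaged higher and 4 lower in KO, limma called 0, and the median log2 fold change was 0.48. The direction of that median rested on KO replicate 3: without it 5 were higher and 5 lower, with a median of -0.05. At an unadjusted p under 0.05 there were 2 of 10, both higher in KO, where 21.8% of all tested genes reached that level and 11.5% did so as higher. Those 2, named after their values were seen, were Lta (lymphotoxin alpha) and Tnf. Lta was at 16.6, 10.9 and 15.5 FPKM in KO, against 5.21, 5.23 and 3.42 FPKM in WT, and every KO library was above every WT library. Its KO over WT difference in log2 was 1.54 (SE 0.235, limma adjusted p = 0.0884). Tnf was at 4.26, 4.28 and 5.58 FPKM in KO, against 1.94, 1.95 and 2.33 FPKM in WT, also without overlap, with a log2 fold change of 1.01 (SE 0.181, limma adjusted p = 0.0884). Both were called without KO replicate 3 (limma adjusted p = 0.0348 for Lta and 0.0349 for Tnf), where 8.12% of all tested genes were called higher. Over all 6 libraries the groups did not overlap for 3 of the 10, Lta, Tnf and Mif, where 27.8% of all tested genes showed no overlap.

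The most abundant genes of that list were Mif, Ltb and Il16. Mif, macrophage migration inhibitory factor, averaged 432.9 ± 49.8 FPKM in KO and 304.5 ± 67.4 FPKM in WT (SD, n = 3 each). Ltb, lymphotoxin beta, averaged 284.1 ± 82.6 FPKM in KO and 350.2 ± 11.7 FPKM in WT. Il16, a chemoattractant cytokine gene, averaged 15.8 ± 3.995 FPKM in KO and 22.4 ± 3.36 FPKM in WT. Their log2 fold changes of 0.52, -0.34 and -0.51 did not pass the limma test.

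Of 15 other chemokines, 7 were tested, 7 averaged higher in KO, limma called 0, 0 had an unadjusted p under 0.05, and the median log2 fold change was 0.58. That median was 0.21 without KO replicate 3, with 4 of 7 higher. Ccl9 and Ccl6 lie between Ccl5 and Ccl3 in the chromosome 11 cluster. Ccl9, named after its values were seen, was at 1.46, 1.55 and 7.99 FPKM in KO, against 0.301, 0.321 and 1.91 FPKM in WT. Ccl6 was at 1.10, 2.08 and 14.0 FPKM in KO, against 0.987, 1.09 and 7.11 FPKM in WT. Both genes were highest in KO replicate 3 and next in WT replicate 3, as Csf2 was. Cxcl10, a chemokine gene induced by interferon gamma, averaged 3.55 ± 3.31 FPKM in KO and 1.63 ± 1.77 FPKM in WT (SD, n = 3 each).

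Of 15 receptors of the members, 12 were tested, 5 averaged higher and 7 lower in KO, limma called 0, and the median log2 fold change was -0.17. The groups did not overlap for 4 of the 12, where 27.8% of all tested genes showed no overlap. With KO replicate 3 left out, 2 were higher and 10 lower in KO, the median was -0.31 and the groups did not overlap for 8, where 53.3% of all tested genes showed no overlap. Il2ra, the high-affinity chain of the IL-2 receptor (CD25), was at 29.6, 20.1 and 63.8 FPKM in KO, against 10.9, 9.99 and 14.6 FPKM in WT. Every KO library was above every WT library, and by limma the difference in log2 was 1.49 (SE 0.407, adjusted p = 0.124). It was 1.03 without KO replicate 3 and was then the 1 receptor called (limma adjusted p = 0.0439), where 8.12% of all tested genes were called higher. The other IL-2 receptor chains overlapped between the groups: Il2rb averaged 173.9 ± 37.4 FPKM in KO and 181.3 ± 21.3 FPKM in WT, and Il2rg averaged 48.6 ± 22.5 FPKM in KO and 59.8 ± 5.76 FPKM in WT (SD, n = 3 each).

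Ifngr1, the ligand-binding chain for interferon gamma, averaged 101.5 ± 9.72 FPKM in KO and 140.5 ± 21.3 FPKM in WT (SD, n = 3 each), with every KO library below every WT library and a limma adjusted p of 0.222. Il10ra averaged 15.9 ± 1.29 FPKM in KO and 20.9 ± 2.87 FPKM in WT, and Il3ra averaged 3.75 ± 0.270 FPKM in KO and 4.85 ± 0.271 FPKM in WT, each with every KO library below every WT library (SD, n = 3 each; limma adjusted p = 0.233 for Il10ra and 0.249 for Il3ra). The other chains Ifngr2, Il10rb, Csf2ra, Csf2rb and Csf2rb2 overlapped between the groups, with log2 fold changes between -0.27 and 0.71. Xcr1, Ccr1 and Ccr3 were below the threshold for testing.

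Of 32 transcription factors of cytokine genes, 30 were tested, 10 averaged higher and 20 lower in KO, and limma called 0. Unadjusted p-values under 0.05 were found for 1 that was higher and 7 that were lower, against 11.5% (higher) and 10.2% (lower) of tested genes. Without KO replicate 3, 5 were higher and 25 lower in KO, and 9 were called, all lower, where 5.58% of all tested genes were called lower. Those 9 were Gata3, Runx3, Nfatc1, Fos, Jun, Stat5b, Klf13, Ikzf1 and Ikzf3. Klf13, a factor known to act on the human CCL5 promoter, was at 17.97, 17.4 and 24.4 FPKM in KO, against 37.9, 40.3 and 35.5 FPKM in WT. It was named after its values were seen, and its KO over WT difference in log2 was -0.93 (SE 0.181, limma adjusted p = 0.0921). Ikzf1 (Ikaros) averaged 66.5 ± 8.01 FPKM in KO and 99.8 ± 2.08 FPKM in WT (SD, n = 3 each; limma adjusted p = 0.130). The AP-1 genes Jund and Junb, which with Ikzf1 were the 3 most abundant of the list, had log2 fold changes of 0.08 and -0.19, and their groups overlapped. Other AP-1 genes differed more: Fos was at -1.35, Fosb at -0.94 and Jun at -1.42, while Fosl2 was at 0.17. Their limma adjusted p-values were 0.113, 0.184, 0.215 and 0.772.

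All 17 regulators of cytokine mRNA stability and translation were tested, 7 averaged higher and 10 lower in KO, and limma called 0. Unadjusted p-values under 0.05 were found for 3 that were higher and 4 that were lower, against 11.5% (higher) and 10.2% (lower) of tested genes. Zfp36 (tristetraprolin), which binds AU-rich elements like those printed for Csf2, was at 9.96, 5.34 and 10.7 FPKM in KO, against 33.1, 32.6 and 29.7 FPKM in WT. It was named after its values were seen. Every KO library was below every WT library, with a log2 difference of -1.87 (SE 0.264, limma adjusted p = 0.0870). Its relative Zfp36l2 averaged 67.9 ± 2.54 FPKM in KO and 107.8 ± 5.87 FPKM in WT (SD, n = 3 each; limma adjusted p = 0.107). Leaving out KO replicate 3, 8 were higher and 9 lower, and 4 regulators were called, all lower, namely Zfp36, Zfp36l1, Zfp36l2 and Zc3h12d, where 5.58% of all tested genes were called lower. The most abundant regulator, the RNA-binding protein gene Ybx1, averaged 632.4 ± 100.98 FPKM in KO and 381.7 ± 110.98 FPKM in WT (SD, n = 3 each), without overlap and with a limma adjusted p of 0.182. Hnrnpd (AUF1), another protein gene of AU-rich element binding, averaged 39.5 ± 7.63 FPKM in KO and 33.9 ± 6.05 FPKM in WT. Whether these regulators and the members' levels are connected was not tested.

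**Figure D5:**
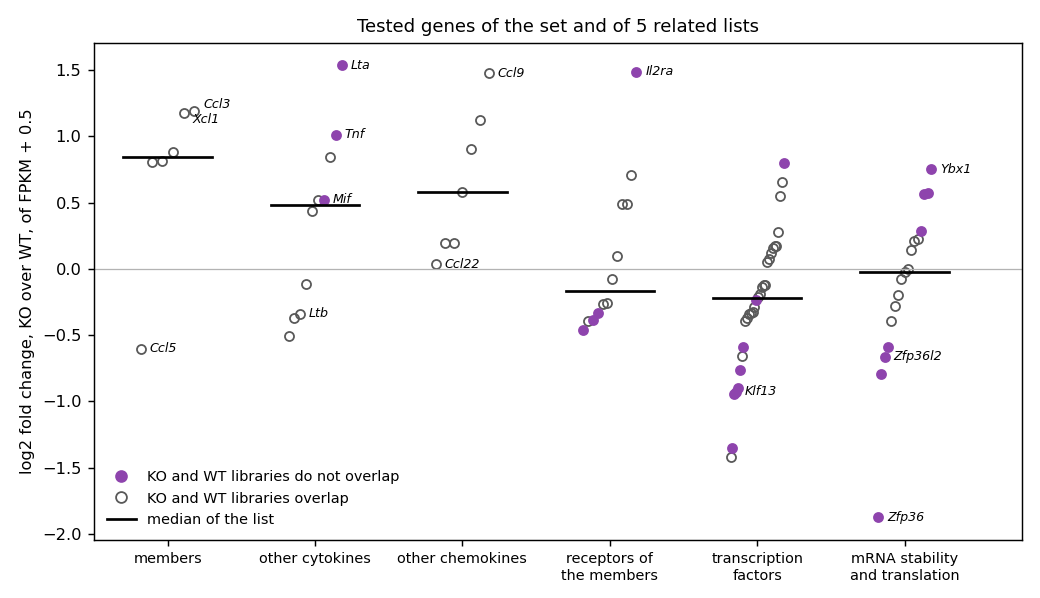
Log2 fold change of FPKM + 0.5, KO over WT (vertical axis), for every tested gene of the set and of 5 related lists (columns), with filled points where KO and WT libraries do not overlap and a bar at each list's median. The members' median is 0.85 with no filled point, and the lowest point is Zfp36 (-1.87).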

How the data were processed

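RNA sequencing of 6 libraries was analysed from a table in which the authors deposited 1 FPKM value per gene and library, with the gene length in bases. The submitters' processing notes name the build mm10, featureCounts 1.5.0-p3, HISAT2 2.0.5, DESeq2 and Trim Galore, without their roles or settings. The labels' protocols name a stranded mRNA kit. How the counting treated strand is not given in the sources used here, so reads of overlapping genes cannot be told apart. Of the members, 4 overlap another annotated gene and 5 overlap none. The overlapping genes Gm49751 (Ifng), Gm20743 (Xcl1), Gm12223 (Csf2) and Adad1 (Il2) reached at most 0.247, 0.500, 0.210 and 0.0169 FPKM in any library.

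Values were tested as log2(FPKM + 0.5) in R 4.3.3 by the limma 3.58.1 package (lmFit and trended eBayes, both directions, with genotype alone in the model). A mean FPKM of 0.5 or more was required for testing, and p-values were Benjamini-Hochberg adjusted over all 12654. Fold changes on this scale understate changes of low genes. FPKM multiplied by length gave multiples of 1 step per library, to within 0.05, for at least 99.99% of values, from which whole reads were rebuilt. Total fragments behind the FPKM were 0.780 (KO replicate 2) to 1.096 (KO replicate 3) times the rebuilt sums. Single values and ratios were tested by exact permutation. GENCODE M21 gave the coordinates, which count from 1, and promoter sequences are from RefSeq. The limma step was tested on simulated data.

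The members and lists were chosen with earlier results of these data known. Named besides the members and Ptpmt1 were the 3 tested genes of highest mean FPKM in each list, any called gene, the receptors of the members except an item that is not reported here, and the 2 likest genes of each tested member with a mean FPKM of at least 1. Predicted genes, receptor segments and ribosomal protein genes were left out of the likest genes. Genes outside this rule were named after their values were seen. Pandas 2.3.3, scipy 1.17.1 and matplotlib 3.10.9 in Python 3.11.15 made tables and plots.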

Additional observations from a re-analysis of the deposited data

How the results depend on the processing

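Over 193 alternatives for the 9 members, their 6 ratios and Ptpmt1, 185 kept the direction and side of the threshold, 3 reversed and 5 passed the threshold where the result as reported did not. The ratios, and Il2, Il3 and Il10 outside the unfiltered limma fit, were tested by permutation. Its smallest p of 0.1 lies above the threshold, so those alternatives could change direction only, and the count of 185 includes them. The reversed values were Il3 without WT replicate 3, at 0.078 against -0.13, and the Ifng to Il2 ratio, at -0.21 with a pseudocount of 0.1 and at -0.0047 without 1 library, against 0.35. With each library left out in turn, Il3 ranged from -0.23 to 0.078, the Ifng to Il2 ratio from -0.0047 to 0.63 and Ptpmt1 from -1.34 to -1.11, where Ptpmt1 was called at -1.32 without KO replicate 3. Array weights called Ccl3 at 0.75, Ccl5 at -1.26, Xcl1 at 0.61 and Ptpmt1 at -1.52, but gave KO replicate 1 a weight of 36.4 against 0.230 and 0.154 for the other KO libraries, from an estimate that stopped before it converged. Calls over all genes numbered 5, against 3 with a pseudocount of 1, 3 with no filter on low values, 14 without a variance trend, 7200 with array weights and 1 with limma-voom on rebuilt reads. They ranged from 2 to 1733 with each library left out, the highest being without KO replicate 3. The replicate block called 12 genes and 0 members, with adjusted p from 0.096 (Ccl3) to 0.222 (Ifng). Deviations of same-numbered libraries correlated at 0.132, 0.0665 and 0.331, and KO replicate 2 correlated best with WT replicate 1 (0.267), so the numbers were not taken as a pairing. Scaling each library to the same FPKM total put the median of all genes at -0.20 against 0.03, and among genes under an unadjusted p of 0.05 the share higher in KO was 22.9% against 52.9%. The calls were then 2 higher and 3 lower, against 3 higher and 2 lower, and relative to that median the 5 higher members stayed higher and Ccl5 lower. Il2, Il3 and Il10 got no value from the filter at a mean FPKM of 1, the variance, weight or block settings or limma-voom, since they were below the threshold for testing. Few reads limit Il2, Il3, Il10 and Csf2 most.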

Other observations

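Several chemokine genes outside the set stood high in replicate 3 of both genotypes. Ccl22, a ligand of Ccr4, was at 0.902, 0.655 and 16.2 FPKM in KO libraries, against 0.525, 0.924 and 16.7 FPKM in WT libraries. Ccl17, its neighbour and another Ccr4 ligand, was at 0.494, 0.296 and 2.05 FPKM in KO, against 0, 0 and 4.87 FPKM in WT. In both, replicate 3 of each genotype stood above the other libraries. Cxcl9, which is induced by interferon gamma, was at 0.821, 0.177 and 4.87 FPKM in KO, against 0.142, 0.0648 and 0.774 FPKM in WT, and was highest in KO replicate 3. Ifng itself did not follow that order, being at 12.7 FPKM in KO replicate 3 and 13.1 FPKM in KO replicate 2. The transcription factor gene Tbx21 (T-bet) was at 16.0, 13.5 and 30.7 FPKM in KO, against 8.10, 9.68 and 20.4 FPKM in WT, and was also highest in replicate 3 of each genotype. What these replicates share was not tested. These genes were chosen after their values were seen.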
